A study of Mus musculus with 6 samples.

Results

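The growth hormone axis was followed through 10 genes, chosen by symbol: Ghr, Jak2, Stat5a, Stat5b, Igf1, Igfals, Socs2, Cish, Bcl6 and Onecut1. All 10 had a row among the 15092 genes of the table, and all 10 passed the filter on low counts, which kept 13816 genes. The samples were livers of C57BL/6J mice, given in the labels as tissue liver and cell type hepatocyte with no sorting named, and poly(A) RNA was sequenced with a stranded kit. The groups were 3 libraries labelled WT and 3 labelled CRY1 KO, a knockout of the cryptochrome gene Cry1, and every title shares the prefix NC, whose meaning is not given. No treatment was listed, and age, sex, time of day and feeding state were not given in the sources used here. The labels do not tell whether replicates came from separate animals, so a p-value here is set by the spread among the libraries alone, part of which may be technical.

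Growth hormone leaves the pituitary in pulses and binds its receptor, GHR, on hepatocytes. The kinase JAK2, bound to the receptor, phosphorylates STAT5A and STAT5B, which enter the nucleus and bind DNA elements with a palindromic core. Targets known in liver include Igf1, which encodes the growth factor IGF1, Igfals, which encodes the acid-labile subunit that holds IGF1 in the circulation, and Socs2 and Cish, which encode inhibitors acting back on the receptor. BCL6 is a repressor that can occupy the same elements and whose gene STAT5 can repress in liver. ONECUT1, also called HNF6, is a liver transcription factor reported to respond to growth hormone. In mice this axis also sets most of the differences between male and female liver.

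Library totals lay between 79708703 and 91316332 estimated counts. WT 1 stood apart: haemoglobin, red cell and platelet markers summed to 2974 CPM (counts relative to the scaled library size) there and to between 582 and 1024 CPM in the other libraries. Markers of Kupffer cells, the liver macrophages, summed to 638, 400 and 249 CPM in WT 1, 2 and 3. The 3 libraries labelled CRY1 KO had 229 to 230 CPM, with 8 of 10 markers below all WT libraries and none at 0. Neutrophil markers ranged from 2.97 to 7.08 CPM in the WT libraries and from 1.69 to 2.04 CPM in those labelled CRY1 KO. Markers of B and plasma cells likewise did not overlap, at 7.66 to 13.3 CPM against at most 4.30 CPM, and among them Jchain, the joining chain of secreted antibodies, fell (log2 -2.45, edgeR adjusted p = 0.0194; named after its value was seen), a call lost without any 1 of the libraries labelled CRY1 KO (adjusted p = 0.0522, 0.105 and 0.115). Hepatocyte markers were high throughout, between 78919 and 92769 CPM in sum, which is the labelled cell type. Cry1 itself was not lower in the libraries labelled CRY1 KO, at 6.31 ± 1.32 CPM in WT and 6.19 ± 0.88 CPM (SD, n = 3 each), so each direction below is that of the labels. The Y-linked transcripts Ddx3y, Uty, Kdm5d and Eif2s3y were present in all 6 libraries, with Ddx3y between 38.2 and 51.9 CPM. Xist was looked for and was not among the 15092 genes.

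RefSeq promoter windows of build GRCm38.p6, from 250 bases before to 50 after a start, were at hand for 9 of the 10 genes, Socs2 being the exception, with 15 windows in all. The STAT5 element TTCNNNGAA, which reads the same on both strands, was in 5 of these windows, those of Cish, Bcl6 and Igfals, against 8.3% of 32851 windows of the same length. The E-box CACGTG, the element bound by CLOCK and BMAL1, was in 2 windows, those of Bcl6 and Onecut1, against 7.15% of all windows. The 2 motifs share no bases in the stretches shown. These stretches were chosen for their matches and belong to the genes other than Socs2 whose groups did not overlap. Matches to either motif are in capitals, 5′ to 3′ on the gene's strand.
Cish: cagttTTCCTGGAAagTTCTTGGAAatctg
Bcl6 inner start: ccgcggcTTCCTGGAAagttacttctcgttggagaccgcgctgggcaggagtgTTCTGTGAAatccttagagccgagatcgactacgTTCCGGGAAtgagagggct
Bcl6 outer start: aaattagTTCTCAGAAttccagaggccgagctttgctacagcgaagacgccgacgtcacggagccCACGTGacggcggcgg
Igfals: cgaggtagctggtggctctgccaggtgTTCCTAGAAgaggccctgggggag
Onecut1: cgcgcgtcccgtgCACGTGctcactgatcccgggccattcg

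The Cish stretch lies at chr9:107296654-107296683 (plus strand) and holds a pair of STAT5 elements, beginning at bases 1 and 12 counted from the RefSeq start. GENCODE places it in the 5′ untranslated exon of a transcript with a start further upstream. Bcl6 has a pair of starts on the minus strand. The inner stretch, at chr16:23981353-23981458 in the first intron of the longer transcript, holds 3 STAT5 elements at positions -168, -122 and -88. The outer stretch, at chr16:23988897-23988977, holds 1 STAT5 element at -118 and 1 E-box at -60. The Igfals stretch, at chr17:24878146-24878196 (plus strand), has its element at -58 from the second of 3 starts, and the first start has another at -236. In Onecut1, at chr9:74861676-74861716 (plus strand), the E-box is at -232. A match is a description of these letters and not evidence of binding, and the counts were mapped to another build, GRCm39.

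The feedback inhibitors Cish and Socs2 and the transcription factor gene Onecut1 lay below all 3 WT libraries in each of the libraries labelled CRY1 KO, Bcl6 lay above them in each, and the receptor, its kinase and both Stat5 genes overlapped between the groups. Igf1 stood at nearly the same level in both. None of the 10 genes passed edgeR's quasi-likelihood test over all genes (0 of 10 at an adjusted p of 0.05), where 1.7% of the 13816 tested genes did, 1.06% with higher and 0.644% with lower levels in CRY1 KO. At an unadjusted p under 0.05 there were 5 of the 10, against 2860 of all tested genes. DESeq2, run without the filter on low counts, called 3 of the 10 (Cish and Socs2 lower, Bcl6 higher), and limma-trend called 0. In all DESeq2 called 1322 of 15092 genes, the share to set beside its counts here and in the later lists. In 5 of the 10 genes the groups did not overlap, against 27.3% of all tested genes: 1 had all libraries labelled CRY1 KO above WT (14.6% of tested genes) and 4 had them below (12.7%). The median log2 difference of the 10, CRY1 KO minus WT, was -0.14, beside -0.019 for all tested genes.

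**Figure D1:**
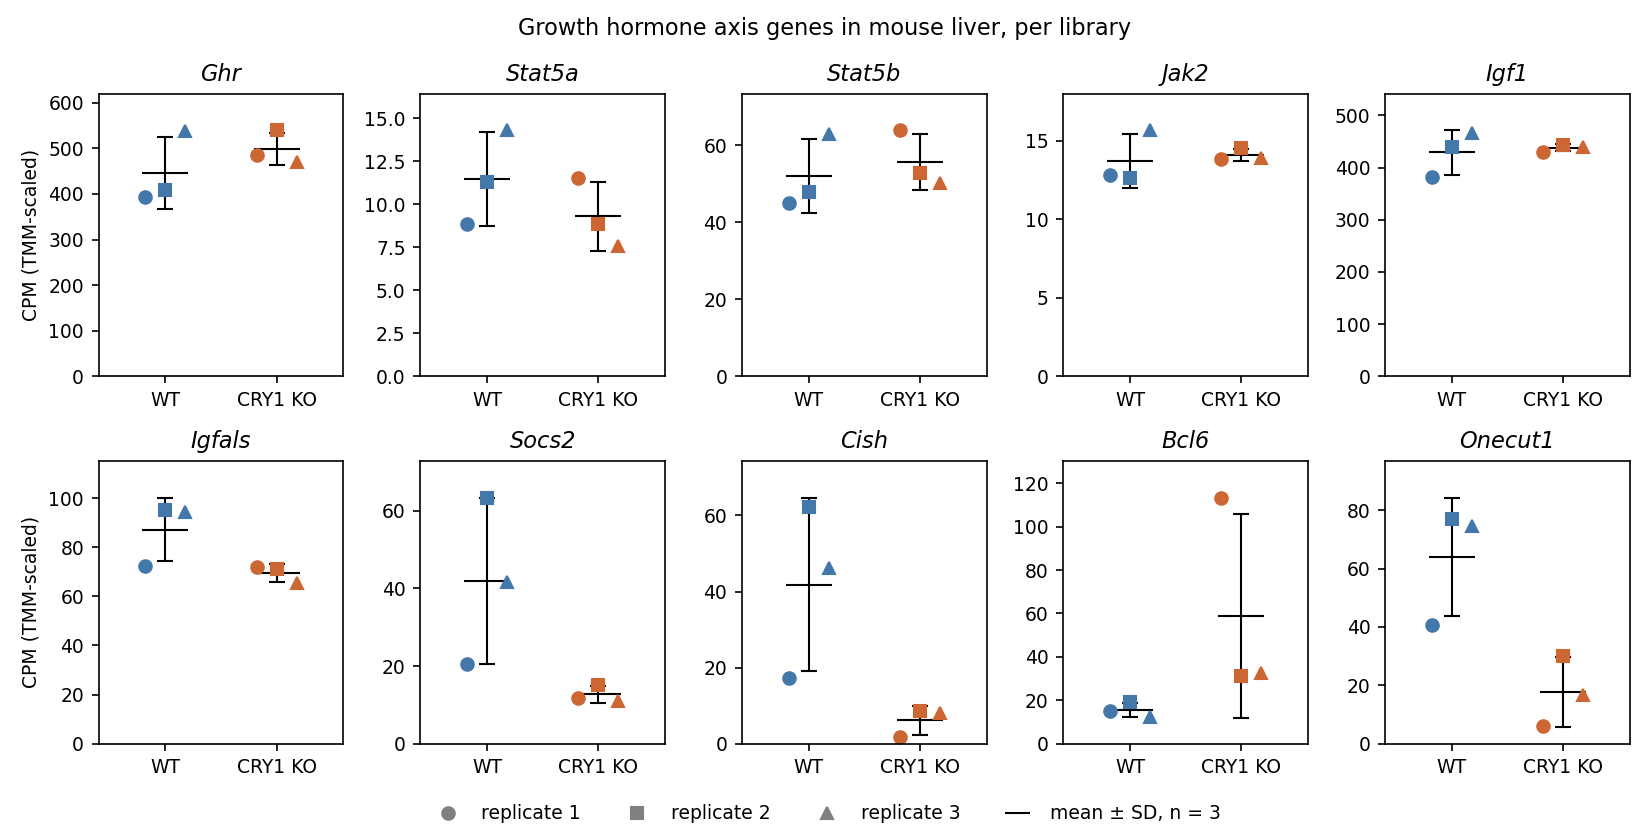
CPM on TMM-scaled library sizes (y axes from 0, a separate scale per gene) of each of the 10 genes in the 3 WT and 3 CRY1 KO libraries, with a marker for each replicate number and a bar for mean ± SD (n = 3). Cish, Socs2 and Onecut1 lie lower in all 3 libraries labelled CRY1 KO, with WT 1 the lowest WT library in each, and Bcl6 lies higher, with CRY1 KO 1 at 113 CPM.

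Ghr, which encodes the receptor, stood at 394, 408 and 538 CPM in WT 1, 2 and 3 and at 486, 540 and 471 CPM in CRY1 KO 1, 2 and 3. The range of WT spanned nearly all of these values. The log2 difference was 0.16 (SE 0.13, edgeR adjusted p = 0.527), and its 95% interval ran from a ratio of 0.905 to 1.38. Jak2, the receptor's kinase, stood at 12.8, 12.6 and 15.7 CPM in WT and 13.8, 14.5 and 13.9 CPM in CRY1 KO. The Jak2 difference was 0.039 (SE 0.11, edgeR adjusted p = 0.877), with an interval from 0.859 to 1.23 as a ratio, so a change of the size seen in Cish or Socs2 lies outside the intervals of both genes.

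Stat5b, the main STAT5 of hepatocytes, stood at 45.03, 47.8 and 63.0 CPM in WT and at 63.9, 52.8 and 50.1 CPM in CRY1 KO, and the log2 difference was 0.098 (SE 0.15, edgeR adjusted p = 0.739). Stat5a, its close relative, stood at 8.84, 11.3 and 14.3 CPM in WT and at 11.5, 8.83 and 7.56 CPM in CRY1 KO, with a difference of -0.30 (SE 0.21, edgeR adjusted p = 0.441). In both genes the groups overlapped. Within each library the estimated count of Stat5b per count of Stat5a was 5.10, 4.23 and 4.40 in WT and 5.54, 5.98 and 6.63 in CRY1 KO, which did not overlap. The exact two-sided permutation p of this ratio was 0.1, the smallest that 3 against 3 libraries allow, and 0.1 after adjustment over the 3 ratios computed (the other, of Bcl6 to Cish, has its direction set by the groups of both genes not overlapping and is not used). The pair are similar in sequence, so how shared reads were assigned bears on this ratio.

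Cish, which encodes the inhibitor CIS, stood at 17.2, 62.2 and 46.1 CPM in WT 1, 2 and 3 and at 1.73, 8.58 and 8.12 CPM in CRY1 KO 1, 2 and 3. All libraries labelled CRY1 KO were below all WT libraries, and the lowest, CRY1 KO 1, had 140 estimated counts where WT 2 had 5229. The fitted level was 6.80-fold lower (log2 -2.76, SE 0.80), the 17th lowest difference of the 13816 tested genes, with a 95% interval of the log2 difference from -4.84 to -0.69. It did not pass the test (edgeR adjusted p = 0.156, unadjusted p = 0.0189), and each group was itself widely spread, over 3.62-fold in WT and 4.95-fold in CRY1 KO.

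Socs2, which encodes the growth hormone inhibitor whose loss gives oversized mice, stood at 20.5, 63.3 and 41.6 CPM in WT and at 11.8, 15.2 and 11.02 CPM in CRY1 KO. The groups did not overlap, and as for Cish the order within WT was WT 2, WT 3, WT 1. The level was 3.30-fold lower (log2 -1.72, SE 0.43, edgeR adjusted p = 0.11), the 74th lowest difference of all tested genes. Without WT 1 Socs2 passed the edgeR test (log2 -2.05, adjusted p = 0.00314), and without WT 2 its difference was -1.29 (edgeR adjusted p = 0.2). Counts of Socs2 per count of Cish were 1.20, 1.02 and 0.902 in WT and 6.81, 1.77 and 1.36 in CRY1 KO. This ratio did not overlap between the groups (exact permutation p = 0.1, adjusted 0.1). Summed Kupffer and neutrophil markers, given above, were below every WT library in each CRY1 KO library. Within WT, WT 1 had the most of both and the least Cish and Socs2, but WT 1 also stood apart in red cell markers. The B and plasma cell sum, which separated the groups too, was smallest in WT 1, as Cish and Socs2 were. Its largest value was in WT 3, where theirs was in WT 2. The marker sums thus differ in their order within WT. The order within WT therefore cannot decide what part these markers have in the differences between the groups. That part was not tested, and in bulk tissue fewer cells of a type and less RNA per cell cannot be told apart.

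Bcl6 stood at 14.9, 19.2 and 12.5 CPM in WT and at 113, 31.0 and 32.7 CPM in CRY1 KO. The groups did not overlap, and CRY1 KO 1, lowest of all libraries in Cish, was highest in Bcl6. The level was 3.80-fold higher (log2 1.93, SE 0.62, edgeR adjusted p = 0.185), the 56th highest difference of all tested genes. Leaving out CRY1 KO 1 brought the log2 difference to 1.04 (edgeR adjusted p = 0.0821).

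Onecut1 stood at 40.8, 76.9 and 74.5 CPM in WT and at 5.96, 29.9 and 16.8 CPM in CRY1 KO. The groups did not overlap, with WT 1 lowest in WT and CRY1 KO 1 lowest of all. Its level was 3.65-fold lower (log2 -1.87, SE 0.65, edgeR adjusted p = 0.209), the 60th lowest difference. The difference was -1.45 without CRY1 KO 1 and -2.49 without CRY1 KO 2 (edgeR adjusted p = 0.19 and 0.225). Its paralog Onecut2 differed by -0.34 (SE 0.11, edgeR adjusted p = 0.134) with groups that did not overlap, and was named after its value was seen.

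**Figure D2:**
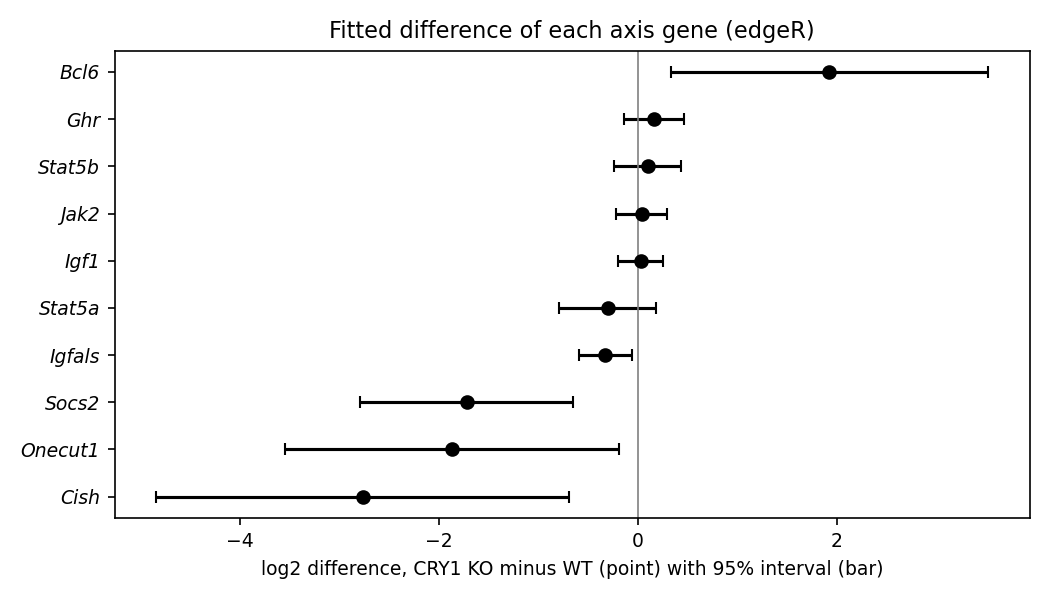
Log2 difference of each of the 10 genes, CRY1 KO minus WT, from edgeR (points), with its 95% interval before adjustment over genes (bars). The intervals of Cish, Onecut1, Socs2, Igfals and Bcl6 do not cross 0, those of the other 5 genes do, and no gene passed after adjustment.

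Igf1, the main output of the axis, stood at 382, 439 and 465 CPM in WT and at 430, 442 and 440 CPM in CRY1 KO. The 3 libraries labelled CRY1 KO lay inside the range of WT. The log2 difference was 0.029 (SE 0.098, edgeR adjusted p = 0.894), and the 95% interval, as a ratio, ran from 0.874 to 1.19, which leaves out differences of the size fitted for Cish, Socs2, Bcl6 and Onecut1. Igf1 and Socs2 share chromosome 10 with Cry1, with 21 and 69 protein-coding genes between them and Cry1 in the RefSeq order of GRCm38.p6. The genes whose centred log2 CPM over the 6 libraries differed least from that of Igf1 were Prpf8, a core spliceosome gene, Nom1 and Cep135, a centriole gene, with root mean square differences of 0.0278, 0.028 and 0.0285. Each of these 3 had overlapping groups, as Igf1 did, which their choice by likeness to Igf1 over the same libraries largely sets.

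Igfals stood at 72.3, 95.1 and 94.2 CPM in WT and at 72.0, 71.1 and 65.4 CPM in CRY1 KO. The groups missed overlapping by the small gap between WT 1 and CRY1 KO 1. The level was 1.25-fold lower (log2 -0.33, SE 0.12, edgeR adjusted p = 0.171). Without WT 1, the lowest WT library, it passed the edgeR test (log2 -0.45, adjusted p = 0.0366). No other of the 14 alternative settings called it. With 1 library left out the log2 difference ran from -0.45 to -0.26, and the edgeR adjusted p reached 0.43.

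**Figure D3:**
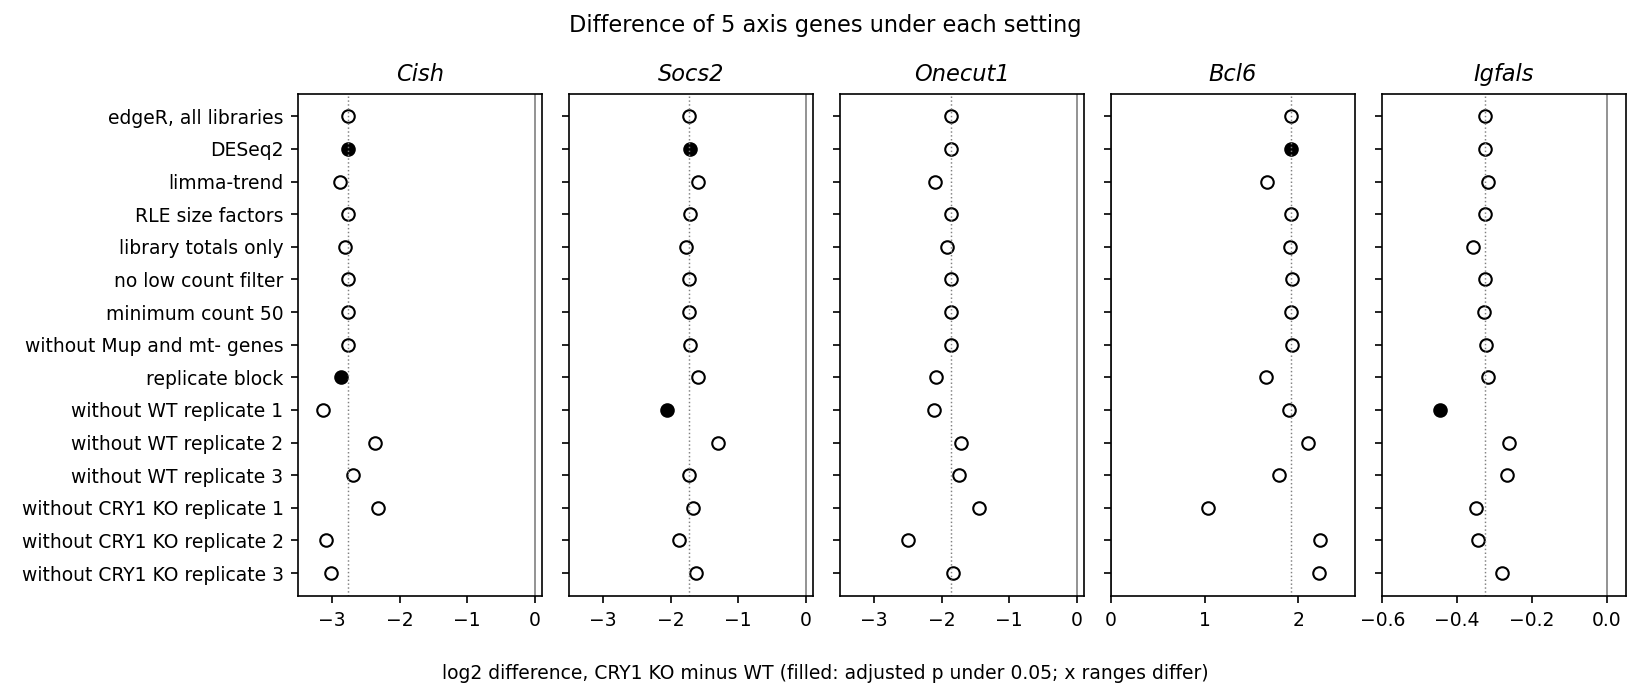
Log2 difference (x axes, ranges differ) of Cish, Socs2, Onecut1, Bcl6 and Igfals with all libraries and under each of 14 alternative settings (rows), filled where the adjusted p was under 0.05. The sign held in all 14 for each of these 5 genes, and 2 of the 14 settings called Cish, 2 Socs2, 1 Bcl6, 1 Igfals and 0 Onecut1.

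The list of IGF carriers and processing had 11 tested genes, namely 7 carriers (Igfbp1 to Igfbp7), the protease gene Htra1, the protease inhibitor gene Stc2 and the receptor genes Igf1r and Igf2r. Of these 0 passed the edgeR test, 0 by the replicate-blocked fit, 1 by limma-trend and 2 by DESeq2, and 2 had an unadjusted p under 0.05. Their median log2 difference was 0.14. Of all 13816 tested genes 2860 had an unadjusted p under 0.05, the share to set beside this and the later lists. Igfbp5 stood at 5.0, 7.61 and 5.14 CPM in WT and at 10.02, 11.7 and 10.2 CPM in CRY1 KO (log2 0.85, SE 0.18, edgeR adjusted p = 0.0566). Igfbp3, which encodes the protein that carries IGF1 together with the acid-labile subunit, stood at 11.1, 9.29 and 14.1 CPM in WT and at 15.6, 21.1 and 23.9 CPM in CRY1 KO (log2 0.81, SE 0.20, edgeR adjusted p = 0.079). For both carriers all libraries labelled CRY1 KO were above all WT libraries. The same held for Igfbp4 (0.16), at 1002 to 1092 CPM in WT and 1135 to 1222 CPM in CRY1 KO. For Igfbp6 (0.63) the groups overlapped, and neither Igfbp4 nor Igfbp6 passed. Igfbp1, the carrier induced by fasting and named after its values were seen, had 241, 42.7 and 39.8 CPM in WT 1, 2 and 3 and 93.5 to 137 CPM in CRY1 KO. Its log2 difference was 0.043 (edgeR adjusted p = 0.986), and without WT 1 it passed the test at 1.43 (edgeR adjusted p = 0.00406).

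Of 12 genes of other receptors that signal through JAK2 or meet this pathway, a list that also holds the cytokine gene Tslp, 0 passed the edgeR test, 5 had an unadjusted p under 0.05, and DESeq2 called 3, with a median log2 difference of -0.052. Il6ra, the interleukin-6 receptor gene, stood at 42.3, 14.9 and 19.1 CPM in WT and at 98.1, 81.7 and 119 CPM in CRY1 KO (log2 1.97, SE 0.44, edgeR adjusted p = 0.0946). Lifr, the receptor gene for leukemia inhibitory factor, stood at 406, 500 and 419 CPM in WT and at 273, 347 and 235 CPM in CRY1 KO (log2 -0.63, SE 0.15, edgeR adjusted p = 0.0736). Neither gene's groups overlapped. Egfr (0.45) and Insr (0.31), receptors for epidermal growth factor and insulin, also lay above all WT libraries in each library labelled CRY1 KO, short of the threshold.

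Among 17 kinases and adaptors that act with the growth hormone receptor 0 passed the edgeR test, with 4 at an unadjusted p under 0.05 and 4 called by DESeq2, and the median was 0.044. The adaptor gene Sh2b2 had a log2 difference of -0.94 (SE 0.22), Irs2, an insulin receptor substrate gene, of 0.58 and Sos1, which encodes an activator of RAS, of 0.38. In none of these 3 did the groups overlap. Among 15 brakes on the pathway, which include the other SOCS genes and the phosphatases, 0 passed the edgeR test, 5 had an unadjusted p under 0.05, DESeq2 called 2, and the median was -0.076. Socs3, a further SOCS inhibitor, stood at 5.80, 10.8 and 8.23 CPM in WT and at 3.26, 3.86 and 5.08 CPM in CRY1 KO (log2 -1.02, SE 0.25, edgeR adjusted p = 0.0795). As in Socs2 and Cish, its highest library was WT 2 and its lowest WT library was WT 1. Ptpn6 (-0.37) and Sirpa (-0.53), which are also expressed in macrophages, were lower with the Kupffer markers given above, and their part in the result was not tested. Socs7 had a difference of 0.39.

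Of 17 genes of liver transcription regulators tied to the axis, 4 rose past the edgeR threshold and 0 fell, against 1.06% and 0.644% of all tested genes. The list also holds Ptbp1, which encodes an RNA-binding splicing factor. In it 13 genes did not pass, and the median was 0.16. The 4 were Zbtb20 (log2 0.98, SE 0.17, edgeR adjusted p = 0.0389), a zinc finger repressor gene of liver, Foxo1 (0.98), the insulin-restrained forkhead factor, Hnf4a (0.73), a master regulator of hepatocytes that also acts in sex-biased expression, and Trim24 (0.72), a corepressor gene. Zbtb20 stood at 47.1, 32.1 and 52.2 CPM in WT and at 90.4, 81.1 and 87.3 CPM in CRY1 KO. The list had 0 called genes without WT 2 and without CRY1 KO 1, 2 or 3, 6 without WT 1 or WT 3, 1 (Zbtb20) with the replicate number as a block, 3 with library totals only (Zbtb20 was then lost, edgeR adjusted p = 0.0602), and 7 with DESeq2. Cux2, a repressor gene active in female liver and named after its values were seen, lay between 0.156 and 0.446 CPM in all libraries.

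Genes whose sex bias in liver depends on growth hormone were followed as the pathway's distal output. Of 20 male-biased genes 0 passed the edgeR test, with 6 at an unadjusted p under 0.05 and 2 called by DESeq2, and the groups did not overlap in 10% of them, against 27.3% of all tested genes. Their median log2 difference was -0.054, and it was 0.35 without WT 1 and 0.19 without CRY1 KO 3. Slco1a1, an organic anion transporter gene, had a difference of 0.51 (SE 0.14, edgeR adjusted p = 0.0979), the pheromone-carrier gene Mup20 of 0.87, the steroid dehydrogenase gene Hsd3b5 of -0.37 and Ihh, which encodes the ligand Indian hedgehog, of -0.82. Of 16 tested female-biased genes 2 rose and 0 fell by the edgeR test, against 1.06% and 0.644% of all tested genes, and 14 did not pass. The median of the 16 was 0.81, beside -0.019 for all tested genes. DESeq2, without the filter, called 4 of 20 genes of this list, 2 higher and 2 lower. The median was 0.32 without WT 3 and 0.46 without CRY1 KO 3, and 0.48 when genes needed a minimum count of 50.

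Cyp3a44, a P450 gene with near-identical neighbours, rose by 1.69 on the log2 scale (SE 0.14, edgeR adjusted p = 0.00317), from a mean of 8.76 CPM (SD 1.62, n = 3) in WT to 28.3 CPM (SD 1.66, n = 3). Fmo2, a flavin monooxygenase gene, rose by 1.14 (SE 0.16, edgeR adjusted p = 0.023), from 6.995 CPM (SD 0.099, n = 3) to 15.4 CPM (SD 3.50, n = 3). Without WT 2, CRY1 KO 2 or CRY1 KO 3 the edgeR test called Cyp3a44 but not Fmo2 (adjusted p = 0.121, 0.103 and 0.0877). Cyp2c69 (-0.91, SE 0.18, edgeR adjusted p = 0.0515) and Cyp2c40 (-1.08, SE 0.25, edgeR adjusted p = 0.0849) lay lower in every library labelled CRY1 KO and did not pass. Of the 16 female-biased genes 13 had positive and 3 negative differences, where 6537 of all 13816 tested genes had positive ones. Most of the 13 were near the floor, with WT means from 0.12 to 0.98 CPM. The 3 negative genes had WT means from 10.2 to 51.4 CPM. The list median of 0.81 and the excess of positive differences thus rest largely on genes near the floor. In 37.5% of the 16 the groups did not overlap, against 27.3% of all tested genes. That share was 50% for the other receptors, 35.3% for the kinases and adaptors, 40% for the brakes, 36.4% for the IGF carriers and processing genes and 35.3% for the transcription regulators. Of the Y-linked genes Ddx3y (0.35) and Uty (0.37) lay above WT in each library labelled CRY1 KO, Kdm5d (-0.18) and Eif2s3y (0.16) overlapped, and 0 of the 4 passed the edgeR test.

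**Figure D4:**
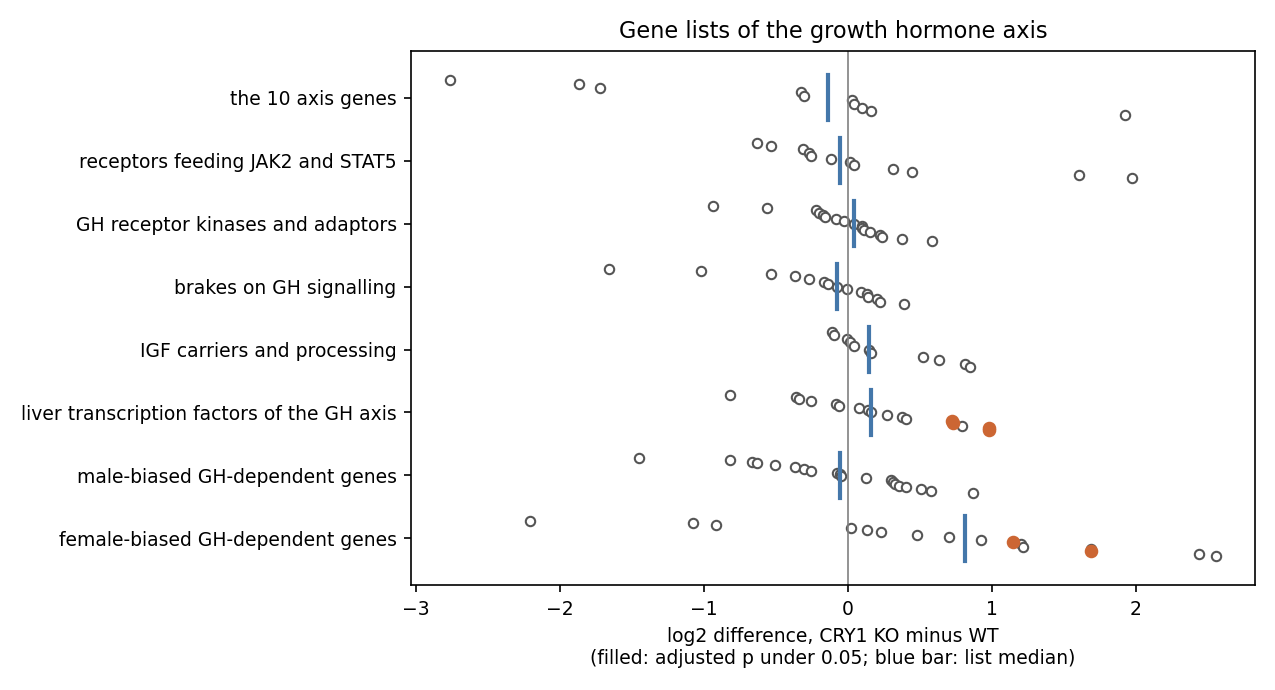
Log2 difference, CRY1 KO minus WT, of every tested gene in the 10 axis genes and the 7 pathway lists (circles), filled where the edgeR adjusted p was under 0.05, with a bar at each list's median. The 4 called transcription regulator genes and the 2 called female-biased genes lie above 0, and the 10 axis genes range from -2.76 (Cish) to 1.93 (Bcl6).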

How the data were processed

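The authors deposited a table of whole numbers per gene and sample, taken here as estimated counts because totals differ between libraries and because low values do not behave as single fragments. The submitters' processing notes name StringTie 2.1.7, HISAT2 2.2.1, limma 3.42.2 and Trim Galore 0.6.7, with build GRCm39. What order and settings these had, which annotation was used and whether strand was counted is not given in the sources used here. Groups and replicate numbers came from sample titles. Genes were filtered (filterByExpr, minimum count 10, minimum total 15), scaled by TMM, a trimmed mean of log ratios, and tested with edgeR 4.0.16 (quasi-likelihood, robust) in R 4.3.3, with p adjusted by Benjamini-Hochberg across the 13816 genes tested, at 0.05. SE is the log2 difference divided by the root of its F statistic. CPM used TMM-scaled library sizes. Alternatives used DESeq2 1.42.0, limma 3.58.1 (prior count 2), other scalings and filters, a replicate block, and each library left out. On simulated counts of this comparison with 13601 genes, edgeR recovered 14.9%, 76.1% and 98.5% of genes changed 1.5-fold, 2-fold and 4-fold, with 17 false calls in 143. DESeq2, which tested 13816 genes of the same simulated table, made 58 false calls in 209. Changes were planted only in genes above a floor on mean count, drawn without regard to their spread. The recovered shares are thus averages, and do not give the recovery of genes as widely spread as Cish, Socs2, Bcl6 and Onecut1.

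The members, lists and rules were chosen with earlier results of these data known. Named were the 10 genes, Cry1, every called gene and up to 4 genes with the smallest p in each list, the 3 profiles nearest Igf1, and the Y-linked transcripts; 1 gene that this rule takes is not reported here. Marker lists of other liver cell types were also summed: endothelial cells (218 to 262 CPM), stellate cells (176 to 252), bile duct cells (33.0 to 73.3) and T and NK cells (3.48 to 5.83).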

Additional observations from a re-analysis of the deposited data

How the results depend on the processing

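Genes called by edgeR numbered 235 (146 higher, 89 lower), 1322 with DESeq2, 113 with library totals only, 94 with the replicate block, and from 17 (without WT 2) to 844 (without WT 3) with 1 library left out, where lower power and the library itself cannot be told apart. The axis genes called numbered 0, 3 with DESeq2 (Cish, Socs2, Bcl6), 1 with the replicate block (Cish, log2 -2.87, edgeR adjusted p = 0.0115), and from 0 to 2 with 1 library left out, the 2 being Socs2 and Igfals without WT 1. Other scalings and filters called 0. The adjusted p over all 14 alternatives ran from 0.0109 to 0.336 for Cish, from 1.05e-05 to 0.316 for Socs2, from 0.0294 to 0.341 for Bcl6, from 0.0514 to 0.426 for Onecut1 and from 0.0366 to 0.43 for Igfals. Same-numbered libraries did not deviate together (correlations of -0.066, -0.014 and 0.070 across genes), so the numbers were not taken as pairs. Genes near 0 changed sign with 1 library left out. Over these fits the log2 difference ran from -0.017 (without WT 2; -0.0080 without WT 1) to 0.15 for Jak2, from -0.047 to 0.093 for Igf1, from -0.0091 (without CRY1 KO 1) to 0.26 for Stat5b, from -0.030 to 0.10 for Prpf8, from -0.040 to 0.087 for Nom1, from -0.038 to 0.11 for Cep135, from -0.016 (without WT 2) to 0.28 for Eif2s3y, and from -0.19 to 0.088 for Cry1 (0.040 without WT 2, 0.084 without WT 3, 0.088 without CRY1 KO 3), the other lowest values being without WT 1. That of Igfbp1 ran from -0.35 (without WT 3; -0.34 without WT 2, -0.13 without CRY1 KO 3) to 1.43 (without WT 1), and that of Cux2 from -0.067 (without CRY1 KO 3) to 0.49 (without WT 2). The cause of these changes was not tested. If the table holds estimated counts, as taken here, low values such as those of Cux2 may be less precise than fragment counts of that size would be.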
